A study of Mus musculus with 2 samples.

Results

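Cytochrome c oxidase (COX, complex IV) is the last enzyme of the mitochondrial respiratory chain. It is built from 2 genomes: mitochondrial DNA (mtDNA) encodes its catalytic core, and the nucleus encodes the surrounding subunits and the factors that assemble it. The 36 genes described here are the 13 protein-coding genes of mtDNA, 11 nuclear COX subunits and 12 COX assembly factors. They were chosen by name, with earlier results of these data known. All 36 stand among the 26394 symbols listed for the control library and among the 23277 listed for the PBM library.

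The core of the enzyme consists of mt-Co1, which carries the haem a3 and copper centre where oxygen is reduced, mt-Co2, which takes electrons from cytochrome c, and mt-Co3. Of the other mtDNA genes, 7 encode complex I subunits (the mt-Nd genes), mt-Cytb encodes a complex III subunit, and mt-Atp6 and mt-Atp8 encode parts of the ATP synthase. COX has been proposed as a molecule that absorbs the light used in photobiomodulation (PBM). The submitters state neither wavelength nor light dose in the sources used here.

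The samples are immune cells of tumours that grew under the skin of wild-type C57BL/6 mice after injection of MC38, a colon carcinoma cell line of the mouse. Treatment with PBM was given each day from day 7, and tumours were taken on day 14. CD45+ cells were sorted, pooled within a condition and profiled as 1 control and 1 PBM library of single-cell RNA sequencing. The number of mice in a pool and the handling of the control mice are not given in the sources used here. With 1 library per group no test was made: intervals are 95% intervals that cover counting error only, and the treatment, the pool of mice and the library cannot be told apart.

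The control library held 11238 cell barcodes with 104673228 unique molecular identifiers (UMIs) and the PBM library 13962 barcodes with 86159897 UMIs, and 11099 and 13062 cells were kept. Cells were sorted into classes and finer types by clustering without any of the 36 genes. The makeup of the libraries differed: the control library held 5102 monocytes and macrophages, 2600 T cells, 205 B cells and 1340 NK cells, and the PBM library 167, 6980, 5557 and 203. The labels call the cells tumour cells, whereas Ptprc, which encodes CD45, stood at 214 to 1004 UMIs per 1000000 UMIs of the class (CPM) in these 4 classes of both libraries. A Sparc-led group of 1214 control and 7 PBM cells had 28.8 and 53.5 CPM of Ptprc and is not compared. Classes of the same name did not hold the same cells. Among T cells, 743 control cells were exhausted-effector CD8-like and 648 effector CD4-like, while 2364 PBM cells were naive-like CD8 and 2351 naive-like CD4. Of the control B cells, 161 of 205 lay in a sub-cluster led by Spp1 and Pf4, which are macrophage and platelet genes. Of the PBM monocytes and macrophages, 70 were classical monocytes and 53 lay in a sub-cluster led by Igkc and Camk1d. The NK cells formed 1 cluster.

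The mtDNA genes lie end to end on a circular molecule of which both strands are transcribed whole and then cut, and 2 pairs of genes remain on shared messenger RNAs. The stretches where the genes of a pair overlap are shown because a UMI from either message cannot be assigned to 1 gene with certainty. In mm10, with the GENCODE annotation, the last 60 bases of mt-Atp8 are at chrM:7910-7969 and the first 60 of mt-Atp6 at chrM:7927-7986, and the last 60 of mt-Nd4l are at chrM:10114-10173 and the first 60 of mt-Nd4 at chrM:10167-10226, all on the forward strand. Capitals mark the 43 bases shared by the first pair and the 7 bases shared by the second.
mt-Atp8: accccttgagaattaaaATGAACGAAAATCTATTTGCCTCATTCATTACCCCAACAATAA
mt-Atp6: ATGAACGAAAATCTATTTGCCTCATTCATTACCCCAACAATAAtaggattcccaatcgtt
mt-Nd4l: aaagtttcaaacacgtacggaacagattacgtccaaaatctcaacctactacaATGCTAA
mt-Nd4: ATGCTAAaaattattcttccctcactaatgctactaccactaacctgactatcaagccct

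In both pairs nearly all UMIs were counted to the gene at the 3′ end. In the kept control cells mt-Atp6 had 38390 UMIs and mt-Atp8 1748, and mt-Nd4 had 12999 and mt-Nd4l 10. In the kept PBM cells the counts were 5753, 173, 2281 and 1. mt-Nd6, the only gene of the 13 on the reverse strand, had 170 control and 14 PBM UMIs, and its end overlaps that of mt-Nd5 by 14 bases. Values of mt-Nd4l and mt-Nd6 therefore rest on few UMIs. The feature lists held no ribosomal or transfer RNA gene of mtDNA.

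The mtDNA-encoded genes were a small part of all UMIs in both libraries, and a smaller part in the PBM library. They made up 0.255% of the UMIs of all control barcodes and 0.0409% of those of all PBM barcodes. The median kept cell held 9 mtDNA-encoded UMIs in the control library and 1 in the PBM library. No such UMI was found in 4.81% of control cells and in 40.0% of PBM cells. After each cell was thinned to 1000 UMIs, the shares without one were 28.4% and 74.8%, with no cell left out, since the shallowest barcodes held 1002 and 1005 UMIs. All cell types use these genes, so no class serves as a background for this share. Few cells held much of the signal. The 1% of cells with the most mtDNA-encoded UMIs held 15.9% of those UMIs in the control library and 18.3% in the PBM library. A share above 5% was seen in 32 control barcodes and 1 PBM barcode. Whether cells with a high mitochondrial share were removed before deposit is not given in the sources used here.

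The median share per cell was lower in T, B and NK cells than in monocytes and macrophages in both libraries. In monocytes and macrophages the median cell had 0.227% mtDNA-encoded UMIs in the control library and 0.156% in the PBM library. In T cells the medians were 0.0811% and 0.0133%, in B cells 0.124% and 0.0198%, and in NK cells 0.0748% and 0.0235%. The upper quartile of PBM cells lay below the lower quartile of control cells in T cells, with 0.0351% against 0.0383%. It did not in the other classes: the quartiles were 0.0525% and 0.0496% in B cells, 0.0526% and 0.0428% in NK cells, and 0.351% and 0.108% in monocytes and macrophages.

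**Figure D1:**
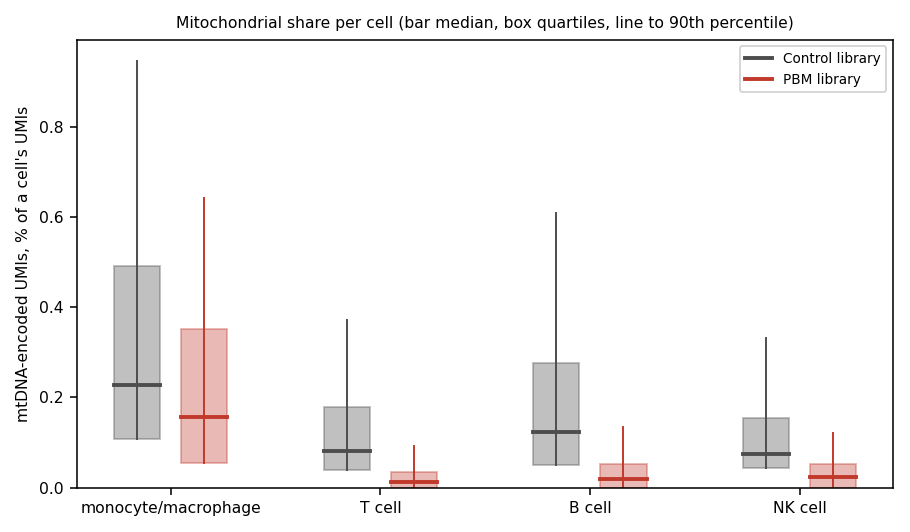
Share of each cell's UMIs that came from the 13 mtDNA-encoded genes, in percent on a linear axis, by cell class and library; bars are medians, boxes quartiles, and lines reach the 90th percentile over cells. The PBM medians of T, B and NK cells are 0.0133%, 0.0198% and 0.0235%, below the lower quartiles of the control cells, and the boxes of monocytes and macrophages overlap.

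Summed over a class, the mtDNA-encoded level was lower in the PBM library in all 4 classes and that of the nuclear COX subunits had an interval clear of 0 only in T cells. In T cells the mtDNA-encoded genes had 1365 CPM in the control library (1346 to 1383) and 346 CPM in the PBM library (341 to 351), a 3.95-fold lower level (log2 ratio -1.98, -2.01 to -1.95). In B cells they had 2184 and 446 CPM (log2 ratio -2.29, -2.37 to -2.21), and in NK cells 1131 and 469 CPM (-1.27, -1.41 to -1.14). Monocytes and macrophages had 3240 and 2813 CPM (-0.20, -0.28 to -0.13).

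The 11 nuclear subunits in the same cells gave other values. Their summed level was 5744 CPM in control and 4206 CPM in PBM T cells (log2 ratio -0.45, -0.46 to -0.44). In the other classes the interval of the ratio held 0: 3919 and 3785 CPM in B cells (-0.05, -0.11 to 0.01), 5509 and 5419 CPM in NK cells (-0.02, -0.06 to 0.02), and 6312 and 6116 CPM in monocytes and macrophages (-0.05, -0.09 to 0.00). Per 100 UMIs of nuclear subunits there were 23.8 mtDNA-encoded UMIs in control T cells and 8.22 in PBM T cells, 55.7 and 11.8 in B cells, 20.5 and 8.65 in NK cells, and 51.3 and 46.0 in monocytes and macrophages. The total used for scaling cancels in this ratio within the same cells. Ribosomal protein UMIs, part of that total, were 27.0% of control and 39.9% of PBM T cell UMIs. The ratio still differed with the depth of the cells. Control T cells of 1000 to 3000 UMIs had 2471 CPM of mtDNA-encoded genes and 5028 CPM of nuclear subunits. Those above 6000 UMIs had 1077 and 6054 CPM. The log2 ratio of the nuclear subunits between the libraries depends on the scaling. With TMM factors it was -0.24 in T cells and turned to 0.15 in B cells. With ribosomal protein and mtDNA-encoded UMIs left out of the total it was -0.17 in T cells and turned to 0.076 in B cells.

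The 12 assembly factors, less abundant, had 692 CPM in control and 488 CPM in PBM T cells (log2 ratio -0.51, -0.54 to -0.47). They had 522 and 648 CPM in monocytes and macrophages (0.31, 0.16 to 0.46). In B cells (-0.12) and NK cells (0.03) the intervals held 0. Much of the first 2 differences was Cox17 alone, with 271 and 97.1 CPM in T cells and 217 and 314 CPM in monocytes and macrophages. The median log2 ratio over the 12 factors was -0.06 in T cells and -0.11 in monocytes and macrophages. RNA of other classes moved with the levels given above. Summed over 10 genes, markers of monocytes and macrophages, the class with the highest mtDNA-encoded level, had 1289 CPM in control and 39.1 CPM in PBM T cells, 1042 and 26.4 CPM in B cells, and 1297 and 342 CPM in NK cells. After free RNA was subtracted at the share estimated from such markers, the mtDNA-encoded log2 ratio was -1.84 in T cells, -2.24 in B cells and -0.98 in NK cells, and in monocytes and macrophages it turned to 0.07. The share is the median over markers that differed widely, from 7.58% to 191% in control T cells, from 11.3% to 1814% in PBM NK cells and from 11.9% to 51.9% in PBM monocytes and macrophages, so these ratios are rough.

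Counted gene by gene, a member was taken as higher or lower at a 1.5-fold ratio of the class levels, among members with at least 20 UMIs over both libraries. In T cells 12 of 12 measured mtDNA genes were lower, with a median log2 ratio of -1.88, where 28.8% of all 14204 genes were lower, 13% were higher and the median was -0.19. Of the nuclear subunits 5 of 11 were lower and 1 higher (median -0.57), and of the assembly factors 1 of 12 was lower (median -0.06). The count of lower subunits depends on the scaling: it was 1 of 11 (Cox5a) with TMM factors and 0 of 11 with ribosomal protein and mtDNA-encoded UMIs left out of the total, while all 12 mtDNA genes stayed lower. In B cells 11 of 11 mtDNA genes were lower (median -2.02), against 24.9% of 11645 genes lower and 10.7% higher with a median of -0.19. None of 11 nuclear subunits passed the line there, and 2 of 12 assembly factors were higher and 2 lower. In NK cells 10 of 11 mtDNA genes were lower (median -1.23), against 16.7% of 11098 genes lower and 19.4% higher with a median of 0.09. None of 11 subunits and 1 of 12 assembly factors, higher, passed the line. Of the mtDNA genes in monocytes and macrophages 4 of 12 were lower (median -0.35), against 17.6% of 13778 genes lower and 18.9% higher with a median of 0.01. There 1 of 11 subunits was higher, and 2 of 12 assembly factors were higher and 2 lower, close to the share over all genes.

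**Figure D2:**
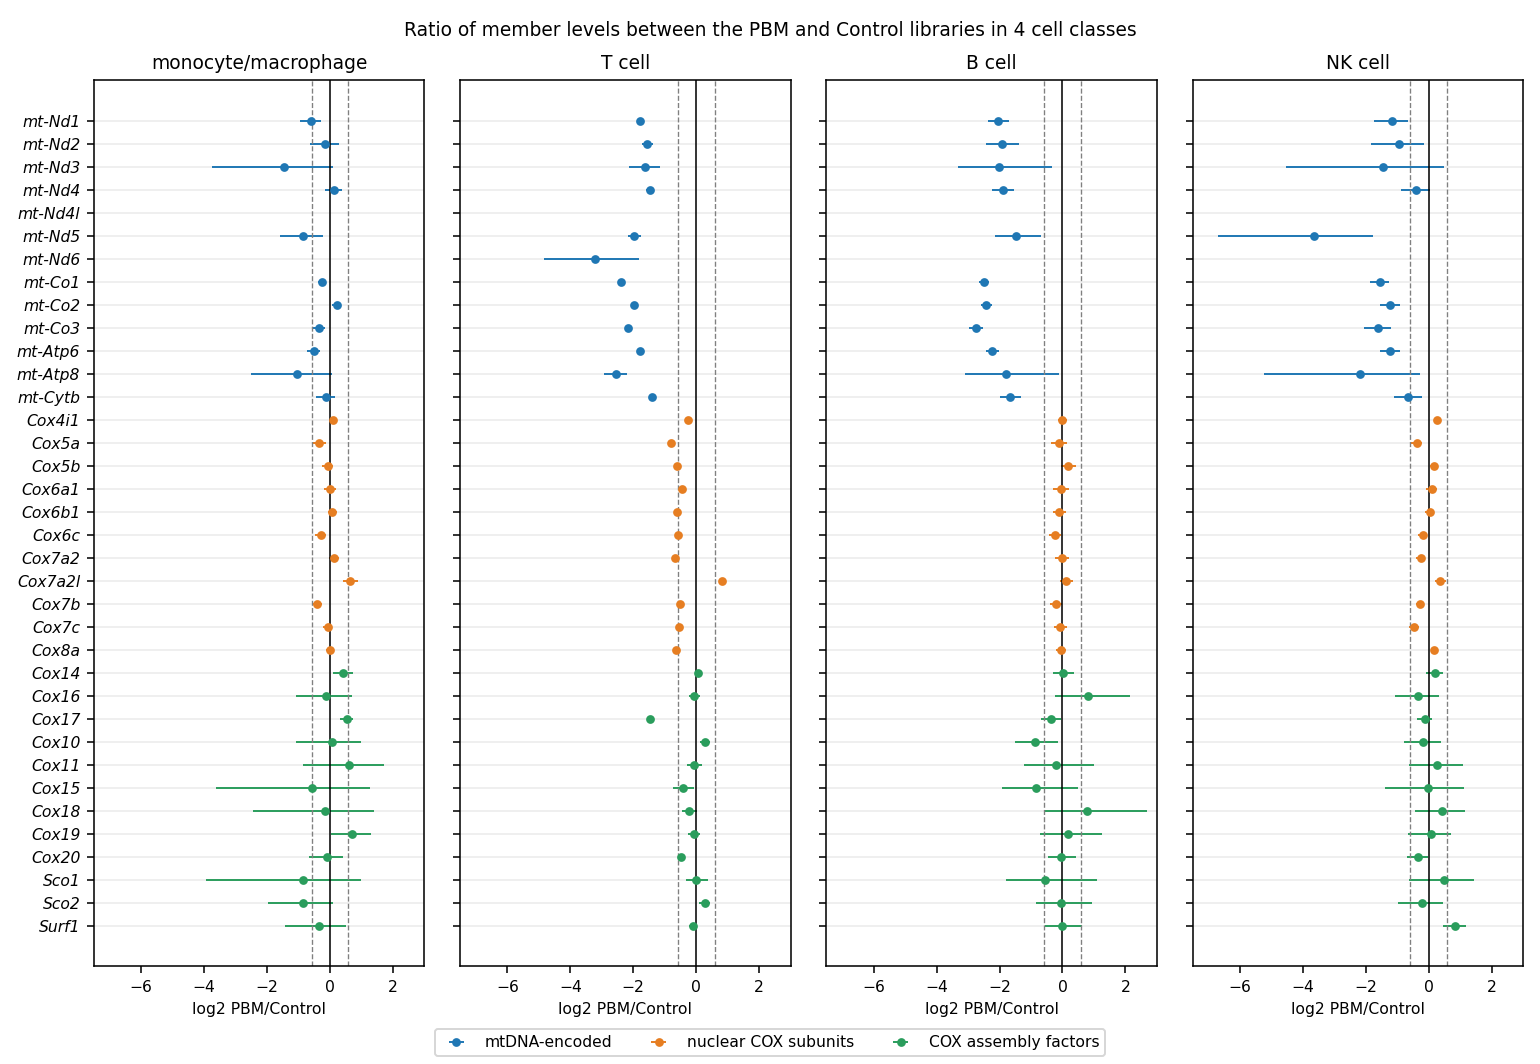
Log2 ratio of the PBM to the control level of each member in 4 classes, with 95% intervals for counting error; dashed lines mark 1.5-fold, and members under 20 UMIs or with 0 UMIs in a library are not drawn. The mtDNA genes (blue) lie left of the line in T, B and NK cells, apart from mt-Nd4 in NK cells, whereas the nuclear subunits (orange) pass the line in T cells, with Cox7a2l at 0.83 and 5 below, and, as Cox7a2l alone, in monocytes and macrophages (0.65).

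Of the mtDNA-encoded COX core, mt-Co1 had 398 CPM in control and 75.7 CPM in PBM T cells (log2 ratio -2.40, -2.45 to -2.34). It had 545 and 96.5 CPM in B cells (-2.50), 301 and 102 CPM in NK cells (-1.55) and 995 and 836 CPM in monocytes and macrophages (-0.25, -0.38 to -0.12), where the ratio turned to 0.025 after free RNA was subtracted. mt-Co2 had ratios of -1.99 in T cells, -2.42 in B cells and -1.22 in NK cells but 0.21 (0.07 to 0.36) in monocytes and macrophages, 602 against 698 CPM. mt-Co3 was among the 3 members with the lowest ratio in each lymphocyte class, of those with at least 100 UMIs and an interval without 0, with -2.17 in T cells, -2.75 in B cells and -1.61 in NK cells.

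Outside COX, the mt-Atp8 ratio was -2.56 (-2.93 to -2.20) in T cells, and that of mt-Nd5 was -3.65 (-6.70 to -1.78) in NK cells, where the PBM library held 2 of its UMIs. In monocytes and macrophages mt-Nd5 had 62.9 and 34.5 CPM (-0.87, -1.58 to -0.24), mt-Nd1 195 and 128 CPM (-0.61, -0.96 to -0.28) and mt-Atp6 467 and 328 CPM (-0.51, -0.72 to -0.30). mt-Nd3 and mt-Atp8 also passed the line there, on 3 and 6 PBM UMIs, with intervals that held 0. The remaining mtDNA genes past the line in lymphocytes, mt-Nd1, mt-Nd2, mt-Nd3, mt-Nd4, mt-Nd6, mt-Atp6 and mt-Cytb, and mt-Atp8 and mt-Nd5 in the classes not yet given, had log2 ratios between -3.22 (mt-Nd6 in T cells, on 6 PBM UMIs) and -0.64 (mt-Cytb in NK cells). mt-Cytb and mt-Nd4 had the ratios closest to 0 in T cells, -1.39 and -1.46.

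The makeup of the mtDNA-encoded UMIs differed as well. In T cells mt-Co1 was 29.2% of the mtDNA-encoded UMIs of control cells and 21.9% of those of PBM cells, while mt-Cytb was 5.92% and 8.89%. In B cells mt-Co1 was 24.9% and 21.6% and mt-Cytb 6.37% and 9.90%, and in NK cells they were 26.6% and 21.8%, and 6.45% and 9.96%. Monocytes and macrophages had a mt-Co1 share of 30.7% and 29.7% and a mt-Cytb share of 5.81% and 6.07%, and there mt-Co2 was 18.6% and 24.8%. Each share counts UMIs and is set against the same gene in the other library. Shares of different genes also reflect how well each message was captured.

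**Figure D3:**
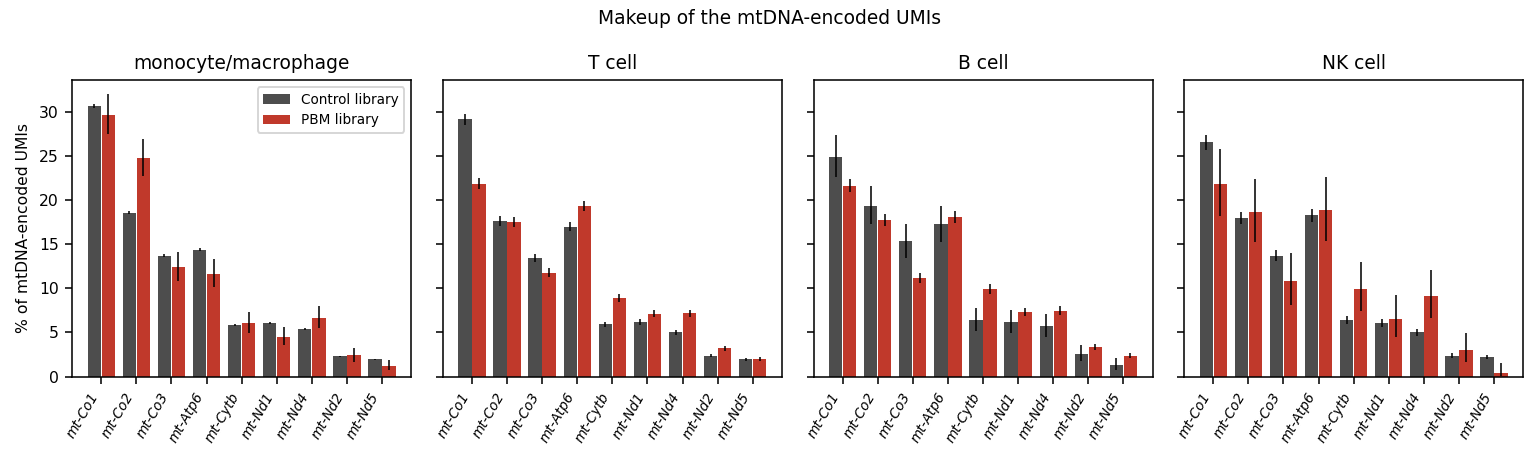
Percent of the mtDNA-encoded UMIs counted to 9 mtDNA genes in each class and library, with exact binomial 95% intervals. The mt-Co1 bar is lower and the mt-Cytb bar higher in the PBM library in the 3 lymphocyte classes (for example 29.2% to 21.9% and 5.92% to 8.89% in T cells), and both are alike in monocytes and macrophages.

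The depth of the cells moved with the level, so the classes were also compared within cells of like UMI totals. In T cells the mtDNA-encoded log2 ratio was -1.91 in cells of 1000 to 3000 UMIs (890 control and 812 PBM cells), -2.01 in cells of 3000 to 6000 and -1.81 above 6000. In NK cells it was -2.42, -1.90 and -0.83 in the same order, with 76, 71 and 56 PBM cells. In B cells it was -2.25 and -1.79 in the lower 2 ranges, and only 11 control B cells were above 6000 UMIs. The monocytes and macrophages had a ratio of -1.11 (-1.26 to -0.97) in the shallow cells, where 1024 control and 99 PBM cells were compared. Above, their ratios were -0.38 and -0.22, on 45 and 23 PBM cells. Each of the 3 ratios lay below that of the class sum, and 99 of the 167 PBM cells of this class were in the shallow range. The nuclear subunits in the same ranges had ratios of -0.31, -0.38 and -0.50 in T cells and of -0.07 to 0.10 in the other classes.

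**Figure D4:**
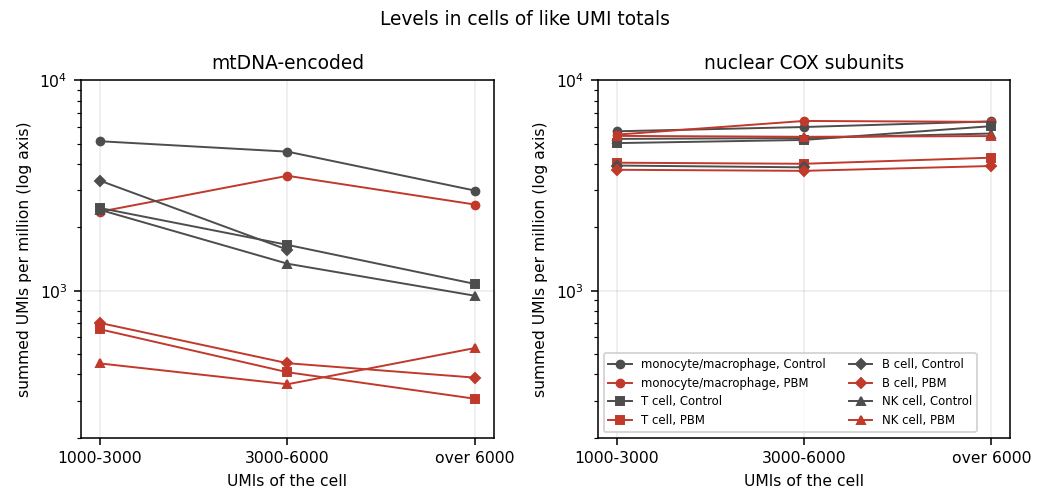
Summed level of the mtDNA-encoded genes (left) and of the nuclear COX subunits (right) in cells of 3 ranges of UMI total, on log axes, by class (symbols) and library (grey control, red PBM); 11 control B cells above 6000 UMIs are not drawn. In shallow monocytes and macrophages the mtDNA-encoded level is 5132 CPM in control and 2374 CPM in PBM cells.

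Within the nuclear subunits Cox7a2l went the other way from its relatives in T cells. Cox7a2l has been described as a link between complex IV and complex III in supercomplexes, which were not measured here. It had 255 CPM in control and 454 CPM in PBM T cells (log2 ratio 0.83, 0.78 to 0.88). The other 10 subunits all had negative ratios there, from -0.82 for Cox5a (401 and 228 CPM) to -0.26 for Cox4i1 (759 and 636 CPM). Below the line were also Cox7a2 (-0.69), Cox8a (-0.64), Cox6b1 (-0.61) and Cox5b (-0.60), and just inside it Cox6c (-0.57), Cox7c (-0.56) and Cox7b (-0.52). These values depend on the scaling: with TMM factors Cox7a2l was at 1.05, Cox4i1 at -0.043, Cox5b at -0.39 and Cox8a at -0.43, and without ribosomal protein and mtDNA-encoded UMIs in the total Cox4i1 turned to 0.024. Cox7a2l was higher in PBM monocytes and macrophages as well (167 and 262 CPM, 0.65, 0.40 to 0.88), and its ratio was 0.36 (0.18 to 0.54) in NK cells and 0.12 (-0.09 to 0.32) in B cells. Cox7a2, the paralogue that sits in complex IV itself, had 0.14, -0.25 and -0.02 in these 3 classes. Cox4i1, the regulatory subunit that binds adenine nucleotides, had 0.10 in monocytes and macrophages, -0.01 in B cells and 0.27 (0.16 to 0.37) in NK cells. Several of these subunits have processed pseudogenes, and how reads shared with them were counted is not given in the sources used here.

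The window of 300 bases around the start of 3 members is shown next, from RefSeq (GRCm38.p6), with capitals for matches to the core letters bound by ETS factors. They are Cox7a2l (chr17:83514284-83514583), Cox8a (chr19:7217567-7217866) and the assembly factor Surf1 (chr2:26916481-26916780), all on the reverse strand. The Cox7a2l window lies inside the span that GENCODE lists for the gene (chr17:83501918-83517330), so that another start further upstream is not covered. The letters searched were CCGGAAG, on both strands.
Cox7a2l: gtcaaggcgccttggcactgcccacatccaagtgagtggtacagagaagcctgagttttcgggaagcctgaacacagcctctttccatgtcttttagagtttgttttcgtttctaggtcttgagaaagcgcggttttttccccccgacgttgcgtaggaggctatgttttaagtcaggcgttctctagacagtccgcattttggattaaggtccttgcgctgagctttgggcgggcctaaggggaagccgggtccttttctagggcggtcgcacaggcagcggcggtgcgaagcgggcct
Cox8a: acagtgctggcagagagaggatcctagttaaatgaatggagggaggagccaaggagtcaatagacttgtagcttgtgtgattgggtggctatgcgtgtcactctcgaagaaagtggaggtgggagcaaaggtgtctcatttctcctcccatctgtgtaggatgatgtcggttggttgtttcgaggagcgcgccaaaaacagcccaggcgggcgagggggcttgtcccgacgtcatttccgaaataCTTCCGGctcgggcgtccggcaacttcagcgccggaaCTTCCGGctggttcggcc
Surf1: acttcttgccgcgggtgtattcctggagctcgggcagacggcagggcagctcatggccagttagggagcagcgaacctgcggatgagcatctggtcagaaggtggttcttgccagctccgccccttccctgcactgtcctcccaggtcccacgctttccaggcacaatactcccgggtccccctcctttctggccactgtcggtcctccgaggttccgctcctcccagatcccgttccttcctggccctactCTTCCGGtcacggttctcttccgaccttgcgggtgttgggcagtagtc

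The ETS letters stood in 3 of the 9 nuclear subunits with a window in the table (Cox6a1, Cox6b1 and Cox8a, the last with 2 matches) and in 7 of the 10 assembly factors with one (Cox10, Cox14, Cox15, Cox16, Cox20, Sco1 and Surf1), against 9.93% of all 27025 genes. No other motif was searched, and Cox17 had no window. A match is a description of the letters and not of binding.

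Among the assembly factors Cox17 had the largest difference. Cox17, the copper chaperone that passes copper to Sco1 and Cox11, had 271 CPM in control and 97.1 CPM in PBM T cells (log2 ratio -1.48, -1.54 to -1.42). Its ratio was 0.53 (0.31 to 0.74) in monocytes and macrophages (217 and 314 CPM), -0.37 (-0.68 to -0.04) in B cells and -0.13 (-0.38 to 0.11) in NK cells. Surf1, which takes part in inserting haem a into mt-Co1, had 42.6 and 75.5 CPM in NK cells (0.83, 0.45 to 1.18), on 419 and 76 UMIs, and -0.11 (-0.22 to 0.01) in T cells.

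The remaining factors past the line rested on few UMIs in the smaller library. In B cells the ratio of Cox10, the haem A pathway enzyme that farnesylates haem, was -0.88 (-1.52 to -0.15) on 20 control UMIs. Those of Cox15, the next enzyme of that pathway, Cox16 and Cox18, which act in maturing mt-Co2, were -0.84, 0.82 and 0.79, with intervals that held 0 on 7, 7 and 4 control UMIs. In monocytes and macrophages the ratio of Cox19, an intermembrane space partner in copper delivery, was 0.71 (0.03 to 1.32) on 22 PBM UMIs. Those of Cox11, Sco1 and Sco2, which deliver copper to the core, were 0.59, -0.87 and -0.84 on 6, 2 and 9 PBM UMIs, with intervals that held 0. In T cells Cox10 had 0.28 (0.12 to 0.44) and Sco2 0.27 (0.10 to 0.44), the highest ratios after Cox7a2l. Cox14 (early assembly of mt-Co1) and Cox20 (mt-Co2 maturation) stayed inside the line in all 4 classes, with ratios from 0.02 to 0.42 and from -0.49 to -0.04.

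Because the classes held different cells, finer types with at least 50 cells in both libraries were set side by side, and 6 met this. The mtDNA-encoded ratio was negative in all 6 and the nuclear COX ratio was closer to 0 in 5 of them. In regulatory T cells (560 control and 753 PBM cells, in different sub-clusters) mtDNA-encoded genes had 1491 and 395 CPM (log2 ratio -1.91) and nuclear subunits 5777 and 4768 CPM (-0.28, -0.31 to -0.25). In cycling T cells (131 and 160 cells) the ratios were -1.58 (879 and 294 CPM) and -0.17 (6981 and 6204 CPM). In classical monocytes (461 and 70 cells) they were -1.06 (4606 and 2207 CPM) and -0.02 (6392 and 6284 CPM), so that the monocytes differed more than the class around them. In the cluster led by Cd209a and Cd209d (315 and 101 cells), left unnamed, they were -1.14 and -0.18. NK cells were given above. In the monocyte and macrophage sub-cluster led by Igkc and Camk1d (229 and 53 cells) they were -0.23 (-0.37 to -0.09) and 0.46 (0.35 to 0.56). Igkc encodes an antibody light chain, and B cell markers summed to 34.1 CPM in control and 1331 CPM in PBM monocytes and macrophages. Their part in these values was not tested.

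The members that stood apart in T cells were read in the same fine types. Cox7a2l had 186 and 364 CPM in regulatory T cells (0.97, 0.82 to 1.12) and 191 and 263 CPM in cycling T cells (0.47, 0.29 to 0.64). Cox17 had -0.98 (-1.14 to -0.82) and -1.28 (-1.46 to -1.10), Cox5a -0.53 and -0.54, and Cox4i1 -0.03 and -0.06. Within regulatory T cells Cox7a2l was the only one of 11 subunits past the 1.5-fold line, and within cycling T cells none was. The share of all genes past the line was not counted in these types. In classical monocytes Cox7a2l had 0.59 (0.21 to 0.96), Cox17 -0.12 (-0.56 to 0.30) and Surf1 3 PBM UMIs. The mt-Co1 ratio was -2.33 in regulatory T cells, -2.03 in cycling T cells and -1.05 in classical monocytes.

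Across the fine types of a library the 2 genomes of the enzyme were not ordered alike. Among 24 control types the mtDNA-encoded level ran from 879 CPM in cycling T cells to 6858 CPM in an unnamed cluster of 96 cells led by Gm10800 and Gm10801, a 7.80-fold range. The named type with the highest level was the nonclassical monocyte, with 5344 CPM. The nuclear subunits ran from 3693 CPM in a cluster led by S100a9 and Retnlg, genes of neutrophils, to 7481 CPM in a macrophage sub-cluster led by Ccl24 and Ifitm1, a 2.03-fold range. Cycling T cells had the lowest mtDNA-encoded level but 6981 CPM of nuclear subunits, above the median of 5776 CPM. The assembly factors ran from 337 CPM in the Gm10800-led cluster to 767 CPM in exhausted-effector CD8 T cells.

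Among 20 PBM types the mtDNA-encoded level ran from 159 CPM in a T cell sub-cluster led by Itm2a and Shmt1 to 2716 CPM in the Igkc-led myeloid sub-cluster, with classical monocytes next at 2207 CPM followed by the Cd209a-led cluster at 886 CPM. The other 17 types, T cells, B cells and NK cells, lay at 649 CPM or below, under the lowest control type. Naive-like CD4 and CD8 T cells had 331 and 358 CPM. Nuclear subunits ran from 3362 CPM in a B cell sub-cluster led by Malat1 to 6284 CPM in classical monocytes, and assembly factors from 419 CPM in an Apoe-led B cell sub-cluster to 626 CPM in gamma-delta or innate-like T cells. As a description over types that share a library, Spearman's rho of the mtDNA-encoded with the nuclear subunit level was -0.06 over 24 control and 0.11 over 20 PBM types. With the share of ribosomal protein UMIs it was -0.71 and -0.56, and with the median UMIs of the type -0.13 and -0.85.

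**Figure D5:**
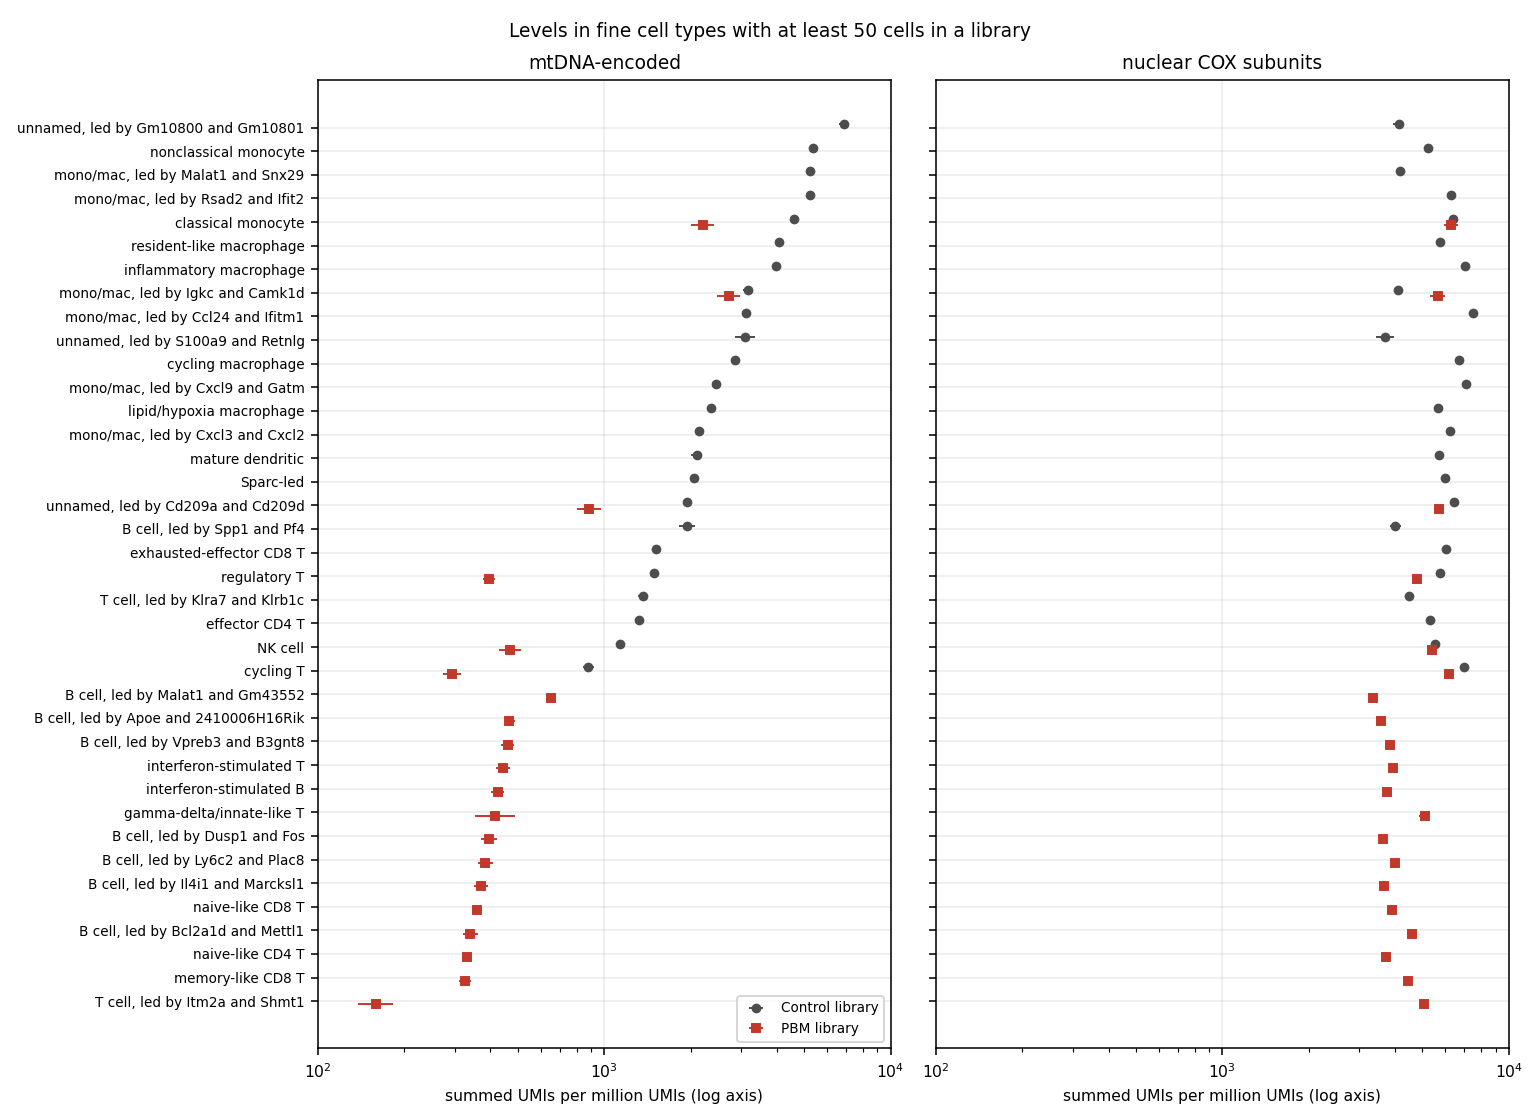
Summed level of the mtDNA-encoded genes (left) and of the nuclear COX subunits (right) in every fine type with at least 50 cells in a library, per 1000000 UMIs on log axes, with Poisson 95% intervals; grey circles are control and red squares PBM, ordered by the higher mtDNA-encoded level. PBM lymphocyte types lie at 159 to 649 CPM on the left, below the lowest control type at 879 CPM, while on the right the libraries overlap.

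Other nuclear genes of the respiratory chain were read from lists by the same 1.5-fold line. Of all genes, 28.8% were lower in T cells, 24.9% in B cells, 16.7% in NK cells and 17.6% in monocytes and macrophages. These shares include the genes that could not be called. In T cells 4 of 36 nuclear complex I genes were lower and none higher (median -0.24), for example Ndufb7 (305 and 170 CPM, -0.84). Of 10 genes of complex III and cytochrome c, 4 were lower (median -0.40), among them Cycs, which encodes the electron donor of COX, with 161 and 84.1 CPM (-0.94, -1.01 to -0.86). Of 16 nuclear ATP synthase genes 2 were lower (median -0.33), among them Atpif1, its inhibitor (-1.11). Like those of the COX subunits, these T cell counts depend on the scaling, since TMM factors raise every T cell log2 ratio by 0.21. With that shift Ndufb8 (-0.67) and Uqcrb (-0.66), for example, would lie inside the line. The lists were not recounted under other scalings. No complex II gene of 4 passed the line in T cells, while in monocytes and macrophages 2 of 4 were lower, Sdhd (91.5 and 44.8 CPM, -1.03, -1.65 to -0.48) and Sdhc (111 and 72.4 CPM, -0.61, -1.09 to -0.18). In B cells and NK cells 1 of 36 complex I genes was lower in each, with medians of -0.07 and -0.02, and in monocytes and macrophages 4 of 36 were lower, with a median of -0.03.

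Genes that copy, transcribe and process mtDNA, and the proteins of its ribosome, were read by the same line. Of 14 measured genes of mtDNA transcription, RNA processing and replication, 1 was higher and none lower in T cells (median 0.14). The one was Twnk, the mtDNA helicase (2.58 and 4.60 CPM, 0.84, 0.35 to 1.36). In B cells 4 of 14 were higher and 2 lower (median 0.23), in NK cells 2 of 13 and 1 (median -0.19), and in monocytes and macrophages 1 and 5 of 14 (median -0.43), where 18.9% of all genes were higher and 17.6% lower. Tfam, the mtDNA packaging factor, stayed just inside the line in NK cells at 0.57 (0.06 to 1.04). The extremes rested on few UMIs: Tefm had 2.01 (-0.49 to 7.32) in B cells on 1 control UMI, and Elac2, which trims transfer RNAs from mtDNA transcripts, -1.28 (-3.56 to 0.27) in monocytes and macrophages on 3 PBM UMIs. Of 77 mitochondrial ribosomal protein genes 2 were higher and 5 lower in T cells (median -0.05), 5 and 1 in B cells (-0.03), 7 and 5 in NK cells (0.05) and 1 and 14 in monocytes and macrophages (-0.19). The share lower over all genes was 28.8% in T cells and 17.6% in monocytes and macrophages. In the latter, Mrpl35 had 49.8 and 17.2 CPM (-1.53, -2.59 to -0.65) and Mrpl47 -1.74 (-4.02 to -0.19) on 3 PBM UMIs, both further from 0 than the mtDNA-encoded sum of that class. Of 13 other COX partners and factors 2 were lower in T cells, Higd1a (227 and 87.4 CPM, -1.38) and Pet100 (-0.75), and in monocytes and macrophages 1 was higher and 3 lower. The one higher was Ndufa4, a subunit associated with complex IV (99.7 and 221 CPM, 1.15, 0.88 to 1.40). Those lower included Cmc2 (32.6 and 13.8 CPM, -1.24, -2.46 to -0.26) and Coa7 (-1.75, -4.80 to 0.11), on 8 and 2 PBM UMIs.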

How the data were processed

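The authors deposited raw UMI counts per gene and barcode for both libraries, with no normalization. Per the submitters' processing notes, Cell Ranger 7.2.0 and mm10 were used, whereas the matrix headers name PISA 0.12, so the program that made and filtered the matrices is not settled. Barcode names are cell numbers ending in an N number, and 1991 names recur in both libraries. Barcodes with at least 500 UMIs, 200 genes and at most 10% mtDNA-encoded UMIs were kept, which removed 11 control barcodes and 1 PBM barcode. Scrublet in scanpy 1.11.5 called 128 (1.14%) and 899 (6.44%) doublets, which were removed.

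Cells were clustered on 2000 variable genes, with the members, ribosomal protein and antigen receptor genes left out, using 30 components, 15 neighbours and Leiden clustering at resolution 1.0 (20 components in re-clustering). Clusters were named from marker lists. Sub-clusters with none of their name's markers among their 10 leading genes stayed unnamed, a rule set after the clusters were seen. Levels are summed counts per 1000000, with exact Poisson intervals, and ratios have exact conditional binomial intervals. A sum of 0 was set to 3 counts. A gene whose direction this reversed was not called but stayed in the shares over all genes. The code was tested on simulated data. edgeR 4.0.16 gave TMM factors as an alternative.

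Named members are the 3 with the highest and lowest ratio in a class among those with at least 100 UMIs and an interval without 0, those past 1.5-fold with at least 100 UMIs, and mt-Co1 and Cox4i1. Others were named for completeness after their values were seen, as were the depth ranges. The members, lists and rules were chosen with earlier results of these data known.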

Additional observations from a re-analysis of the deposited data

Results flagged for a closer look

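In 6 members the ratio of PBM to control pointed in opposite directions in 2 classes, each with at least 100 UMIs and a counting interval that left out 0. The difference between the classes was not tested, since each group is 1 library. Cox10 had a log2 ratio of 0.28 in T cells and -0.88 in B cells. Cox17 had 0.53 in monocytes and macrophages and -1.48 in T cells. Cox5b had 0.16 in NK cells and -0.60 in T cells, and Cox8a 0.18 and -0.64 in the same classes. Cox4i1 had 0.27 and -0.26 there, and the T cell value turned to 0.024 without ribosomal protein and mtDNA-encoded UMIs in the total. mt-Co2 had 0.21 in monocytes and macrophages and -2.42 in B cells. TMM shifted all ratios by -0.12 in NK cells and 0.20 in B cells. With it the NK cell intervals of Cox5b and Cox8a, which began at 0.03 and 0.08, would hold 0. The same is true of the B cell interval of Cox10, which ended at -0.15.

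Barcodes left out for a high mitochondrial share reached 74.8% mtDNA-encoded UMIs in the control library, where 10 were left out for this, and 15.5% in the PBM library, where it was 1.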

How the results depend on the processing

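No paired analysis was possible because each group is 1 library, and no library could be left out. Of 168 alternative values of class and fine type levels and counts, 124 moved by less than the counting interval or by less than 1.5 times. The mtDNA-encoded log2 ratio moved in T cells to -2.03 with doublets kept, -2.19 with equal weight per cell, -1.70 without ribosomal protein and mtDNA-encoded UMIs in the denominator, -1.77 with TMM factors, -1.84 after free RNA was subtracted, -1.95 at Leiden resolution 0.5 and -2.03 without the 1% of cells with the highest share. In B cells it moved to -2.47 with equal weight, -2.16 with the other denominator, -2.09 with TMM and -2.53 in barcodes ending in N1, and in NK cells to -1.81 with equal weight and -0.98 after free RNA was subtracted. In monocytes and macrophages it moved to -0.55 with equal weight, -0.82 at resolution 0.5 and 0.066 after free RNA was subtracted.

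The nuclear subunit ratio in T cells moved to -0.39 with equal weight, -0.17 with the other denominator, -0.24 with TMM, -0.43 after free RNA was subtracted and in N1 barcodes, -0.50 at resolution 0.5 and -0.51 without sub-clusters led by genes of another class. In B cells it moved to 0.076 with the other denominator, 0.15 with TMM and 0.044 after free RNA was subtracted, in NK cells to -0.14 with TMM and 0.075 after free RNA was subtracted, and in monocytes and macrophages to 0.078 after free RNA was subtracted and -0.13 at resolution 0.5. The assembly factor ratio in T cells moved to -0.45 with equal weight, -0.23 with the other denominator, -0.29 with TMM, -0.55 after free RNA was subtracted and -0.57 without sub-clusters led by another class. It moved in B cells to 0.077 with TMM, in NK cells to -0.11 in N1 barcodes and in monocytes and macrophages to 0.13 at resolution 0.5.

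Members past the fold in monocytes and macrophages, 9 in all, were 5 without sub-clusters led by genes of another class and 2 at a 2-fold line. In fine types, classical monocytes moved to -0.83 (mtDNA-encoded, resolution 0.5) and 0.074 (subunits, doublets kept), cycling T cells to -1.71 (mtDNA-encoded, doublets kept) and regulatory T cells to -0.23 (subunits, N1 barcodes). Among members past the line the direction turned for Sco1 in monocytes and macrophages at resolution 0.5 (0.13) and for Cox18 in B cells in N1 barcodes (-0.40). Among named members inside it, it turned for mt-Co1 in monocytes and macrophages after free RNA was subtracted (0.025), for Cox4i1 in T cells with the other denominator (0.024) and for Cox4i1 in B cells (main value -0.009) under 5 alternatives, up to 0.19 with TMM. The cause was not tested. The 2 alternatives without the top 1% of cells and without sub-clusters led by another class were chosen after seeing the data.

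TMM shifted all log2 ratios by 0.21 in T cells, 0.20 in B cells, -0.12 in NK cells and -0.03 in monocytes and macrophages. Classes from a gate on markers could not be fitted, with 4 PBM monocytes and macrophages, 45 control T cells, 15 control B cells and no PBM NK cell. N1 barcodes of monocytes and macrophages (96 PBM cells), control B cells without the Spp1-led sub-cluster (44), and regulatory and cycling T cells at resolution 0.5 also fell short of the cell minimum. Those N1 barcodes had a mtDNA-encoded log2 ratio of -0.04 (-0.14 to 0.06), an interval that held 0. It was -0.64 (-0.81 to -0.48) in N2 barcodes with 31 PBM cells. In barcodes of N3 or more, with 40 PBM cells, it was -0.16 (-0.28 to -0.03). With 167 PBM monocytes and macrophages, assembly factors of under 20 PBM UMIs cannot be read singly.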

Other observations

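Tissue isoforms of COX subunits were near the counting limit in most classes, apart from Cox6a2 and Cox7a1. Cox6a2, the heart and muscle isoform of Cox6a1, had 601 UMIs in all kept control cells and 485 in all kept PBM cells, and 54.7% and 84.7% of them lay in the unnamed cluster led by Cd209a and Cd209d. When this cluster was split by Siglech, a gene of plasmacytoid dendritic cells, a split chosen after the data were seen, Cox6a2 followed it. Cells with at least 2 Siglech UMIs had 1145 CPM of Cox6a2 in the control library (1020 to 1282, 43 cells) and 1799 CPM in the PBM library (1628 to 1983, 30 cells). Cells with no Siglech UMI had 2.49 CPM (0.81 to 5.80, 261 cells) and 11.2 CPM (2.30 to 32.6, 70 cells). Cox6a1 differed little by this split, with 357 and 426 CPM in the control library and 324 and 357 CPM in the PBM library, Siglech cells first.

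The same split divided the mtDNA-encoded level in the PBM library. Siglech cells had 249 CPM there (188 to 323) and cells without Siglech 1425 CPM (1286 to 1576), while in the control library the values were 2621 CPM (2429 to 2824) and 1881 CPM (1822 to 1942). The log2 ratio of -1.14 given for the whole cluster thus averages 2 unlike kinds of cell.

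In monocytes and macrophages Cox7a1, another muscle isoform, had 1075 control UMIs and 1 PBM UMI (20.8 and 1.72 CPM, log2 ratio -3.59, -8.90 to -1.11). The finer types behind this sum differed: control classical monocytes had 2.83 CPM and PBM classical monocytes 4.74 CPM, on 6 and 1 UMIs, whereas control lipid/hypoxia, inflammatory and resident-like macrophages had 17.5, 18.5 and 33.9 CPM. None of these macrophage types had 50 PBM cells. The Sparc-led control cells held 176 further UMIs (8.46 CPM).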
